A study of Zea mays with 7 samples.

Results

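Small RNAs recovered with antibodies against AGO104 and AGO105, 2 ARGONAUTE proteins of maize, were compared in length class 24, by its name the class of the 24-nt siRNAs. The comparison rests on 2 of the 10 deposited tables that carry an antibody and a length class in their names, 1 table per antibody. Covered intervals within 100 bp of each other were joined, which gave 173227 loci over both tables, 66793 of them covered in AGO104 and 133301 in AGO105. The 10 tables together, over classes 21 to 25, merged into 221154 loci. Each table holds the 10 chromosomes, the mitochondrial genome (Mt) and the plastid genome (Pt).

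ARGONAUTE proteins bind small RNAs and use them as guides to matching nucleic acids. In RNA-directed DNA methylation, RNA polymerase IV transcripts are made double-stranded, in maize by MOP1, cut into 24-nt siRNAs by a DICER-LIKE enzyme, and loaded onto ARGONAUTE proteins of the AGO4 group, which bring DNA methylation to the matching loci. AGO105 is a close maize homolog of Arabidopsis AGO4, and AGO104 a putative homolog of Arabidopsis AGO9, which acts in reproductive tissue. In maize, 24-nt siRNAs are known to lie mainly in the gene-rich outer parts of the chromosomes.

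The study is about AGO104 in paramutation at the b1 locus. Its libraries came from immature ears of B73, Mop1-1/mop1-1, mop1-1/mop1-1 and ago104 plants, and the labels of every library name AGO104 and AGO105 together. A home-made peptide antibody served for each protein. Genotype, tissue, number of pooled libraries and genome build are not stated for the tables compared here, and coordinates follow the tables, without annotation. The antibody names could not be checked against the data, since the tables hold small RNA coverage only. With 1 table per antibody there was no replicate, and a difference between the antibodies cannot be told apart from a difference between libraries.

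The values are depths of aligned reads. Alignments were counted as rises in depth, and each position with a rise as 1 distinct start. The AGO104 table held 660507 alignments at 87731 distinct starts, and the AGO105 table held 1359946 alignments at 192596 starts, so AGO104 had 0.486 times the alignments of AGO105. Most stretches of coverage that touched no other were 22 bases long, 92.0% of 67701 in AGO104 and 92.3% of 135338 in AGO105. The number in a table's name therefore exceeded the usual aligned length by 2 bases. To compare the antibodies, coverage was scaled to a sum of 1000000 in each table, called scaled units. Intervals are at 95% and cover counting error only, and reads without molecular identifiers are not independent molecules.

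By chromosome, both antibodies gave nearly the same profile. Chromosome 2 held the most coverage, 18.1% in AGO104 and 17.9% in AGO105, followed by chromosome 10 with 14.7% in both. Chromosome 1, the longest, held 12.4% in AGO104 and 12.0% in AGO105. The other 7 chromosomes held between 6.01% and 9.22% in AGO104 and between 6.25% and 9.32% in AGO105. The ratio of shares, AGO104 over AGO105, ran from 0.934 on chromosome 7 to 1.05 on chromosome 5. These ends were not the ends by distinct starts. By starts, the ratio was 1.01 (interval 0.978 to 1.04) on chromosome 7 and 0.997 (0.972 to 1.02) on chromosome 5. The range by starts ran from 0.950 (0.922 to 0.979) on chromosome 9 to 1.08 (1.05 to 1.11) on chromosome 10. The intervals of chromosomes 3 and 8, with ratios of 0.968 and 0.971, also lay below 1. All these ratios include the starts of the windows chr10:35000001-35500000 and chr2:157500001-158000000, each with a ratio by starts of 1.82. AGO104 had 1551 and 1424 starts there, and AGO105 had 1866 and 1720. Shares by starts without these windows were not computed. How far the chromosome ratios and their intervals depend on these windows was not tested.

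The organelle genomes differed more than any chromosome. The plastid genome held 0.706% of the coverage in AGO104 and 0.312% in AGO105, a ratio of 2.26. By starts its ratio was 1.78 (1.60 to 1.98), and that of the mitochondrial genome 1.12 (1.02 to 1.24). Mitochondrial coverage was 0.801% in AGO104 and 0.597% in AGO105. The part of organelle RNA in other differences was not tested.

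The lead of chromosomes 2 and 10 came from 1 window of 0.5 Mb on each. The window chr10:35000001-35500000 held 8.72% of the AGO104 coverage and 8.41% of the AGO105 coverage, and chr2:157500001-158000000 held 8.43% of the AGO104 coverage and 8.01% of the AGO105 coverage. Together these windows took 17.1% of the coverage in AGO104 and 16.4% in AGO105, but only 3.39% and 1.86% of the distinct starts. Without them, chromosome 2 fell to 11.7% in AGO104 and 11.9% in AGO105, and chromosome 10 to 7.23% and 7.48%.

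Along the chromosomes, class 24 starts thinned towards the middle with both antibodies. Each chromosome was folded at its middle and cut into 10 equal parts, and the 2 deepest windows were left out. The part nearest the ends held 13.8% of the starts in AGO104 and 13.8% in AGO105, and the part at the middle 7.85% and 7.68%. The share fell at every step inwards in both tables. The outer 20% of chromosome length held 25.5% (25.2 to 25.8) of 83523 starts in AGO104 and 25.8% (25.64 to 26.04) of 187071 starts in AGO105, and these intervals overlap. By coverage it held 26.4% in AGO104 and 27.4% in AGO105.

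**Figure D1:**
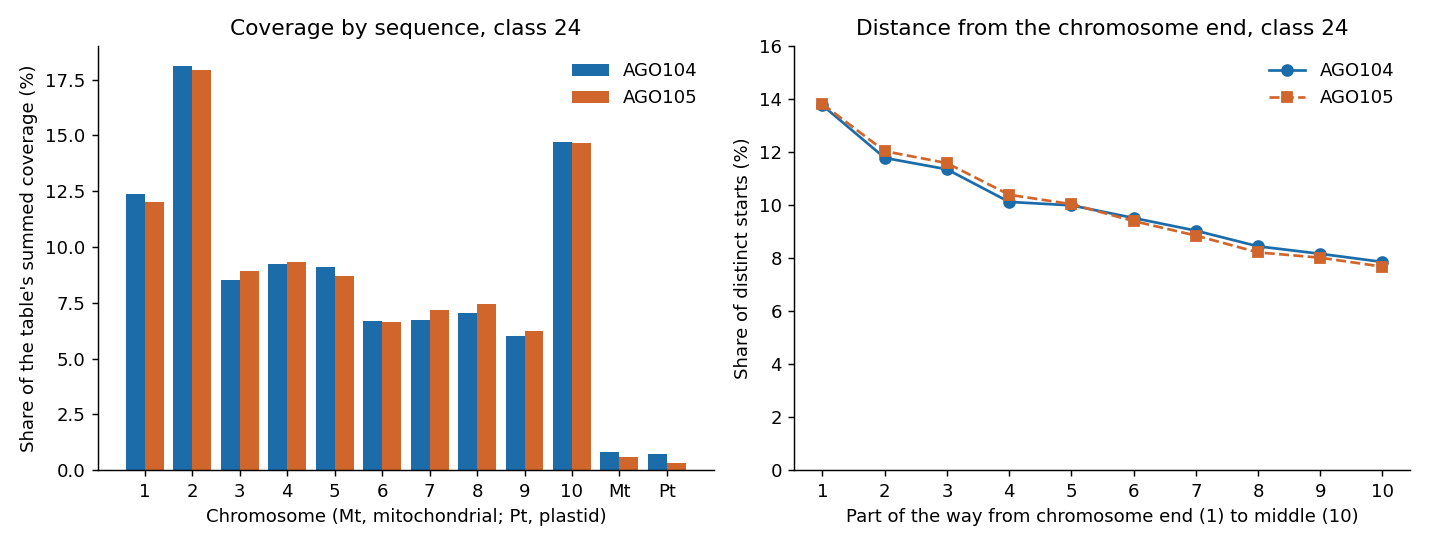
Left, share of each table's summed coverage (%) by chromosome, with AGO104 bars left of AGO105 bars, no replicates. Right, share of distinct starts (%) in 10 equal parts running from the chromosome end to its middle, without the 2 deepest windows. Chromosomes 2 and 10 stand out in both tables, and the lines fall together to 7.85% in AGO104 and 7.68% in AGO105 at the middle.

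On chromosomes 3, 6, 7, 8, 9 and 10 the far end held more starts than the near end with both antibodies. On chromosomes 1, 2, 4 and 5 the near end held more with both. On chromosome 6, the first 10% of its length held 7.93% of the chromosome's starts in AGO104 and 7.24% in AGO105, and the last 10% held 13.7% and 14.7%. On chromosome 10, the first 10% held 10.03% in AGO104 and 10.9% in AGO105, and the last 10% held 17.1% and 17.05%. On chromosome 4 the ends were closer, with 12.6% and 11.9% in AGO104 and the same rounded values in AGO105. Over the 10 chromosomes, the share of starts in the outer 20% ran from 21.6% to 28.0% in AGO104 and from 21.9% to 28.2% in AGO105, lowest on chromosome 6 in both.

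Windows of 0.5 Mb put a finer scale on this likeness. Of 4216 windows, 3834 (90.9%) lay within 2-fold between the antibodies. AGO104 was more than 2-fold higher in 123 windows (2.92%) and more than 2-fold lower in 259 (6.14%), with the ratio taken as log2 of scaled units plus 1. The middle 90% of the log2 ratios, AGO104 over AGO105, ran from -1.08 to 0.85, around a median of -0.07. Spearman's rho across the windows was 0.764, and Pearson's r of the log2 values 0.784. The windows come from the same 2 libraries or pools, so these are descriptions. A window held a median of 18 starts in AGO104 and 41 in AGO105, and by starts the counts fell to 49 windows higher and 135 lower.

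Within single chromosomes rho ran from 0.706 on chromosome 3 to 0.795 on chromosome 8. Windows past 2-fold numbered from 6 to 21 per chromosome higher in AGO104 and from 18 to 37 lower, with between 302 and 615 windows per chromosome. Across the same windows, rho was 0.503 in class 22, 0.480 in class 21, 0.455 in class 23 and 0.304 in class 25. Those classes had between 10680 and 20508 starts in AGO104 and between 18045 and 36320 in AGO105, so depth differed along with the class.

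**Figure D2:**
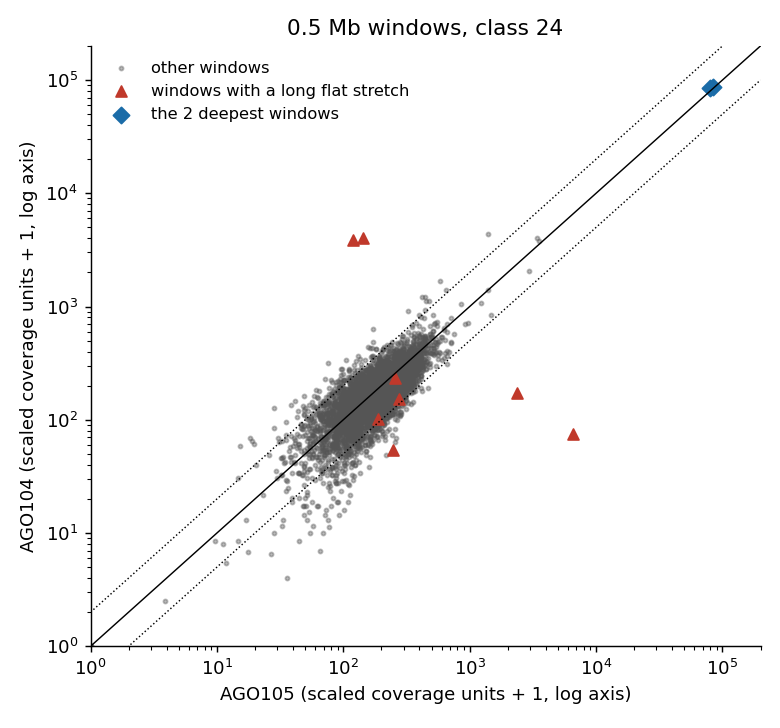
Coverage of each of 4216 windows of 0.5 Mb in AGO104 (vertical) against AGO105 (horizontal), in scaled units plus 1 on log axes; the full line marks equality and the dotted lines 2-fold. Most windows lie between the dotted lines, the 2 deepest windows lie on the full line, and 4 of the 8 windows with a long flat stretch lie far from it, with log2 ratios of 5.00, 4.81, -3.79 and -6.45.

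The windows with the strongest ratios owed them to long flat stretches. Such a stretch keeps a single depth over far more bases than a class 24 alignment spans. There were 2 longer than 44 bases in AGO104, with 0.750% of its coverage, and 11 in AGO105, with 0.887%. In AGO104 they lay at chr1:68206494-68212148 (5655 bases at depth 10) and chr5:95081229-95088022 (6794 bases at depth 8). The window of the chromosome 5 stretch had 3830 scaled units in AGO104 and 118.5 in AGO105 (log2 ratio 5.00), on 106 and 168 alignments. The window of the chromosome 1 stretch had 4012 in AGO104 and 142 in AGO105 (log2 ratio 4.81), on 137 and 198 alignments. In AGO105 the longest stretch ran over 9496 bases at depth 8 at chr7:17844948-17854443. Its window had 73.9 scaled units in AGO104 and 6562.5 in AGO105 (log2 ratio -6.45), on 50 and 199 alignments. By starts the 3 log2 ratios were 0.31, 0.70 and -0.82. What produced the flat stretches was not tested.

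Beyond these, 8 windows of the 10 highest and 8 of the 10 lowest had no flat stretch. They were picked by ratio from the same reads, so an interval by starts that misses 1 is no independent support. Of the high ones, the interval of the ratio by starts lay above 1 in 5 and included 1 in 3. The highest by coverage, chr8:54000001-54500000, was among the 3, with 125 scaled units in AGO104 and 27.3 in AGO105 and a ratio by starts of 1.37 (0.557 to 3.22). The window chr1:179000001-179500000 had 316 scaled units in AGO104 and 74.9 in AGO105, from 24 starts in AGO104 and 17 in AGO105, a ratio by starts of 3.10 (1.60 to 6.15). The window chr6:32500001-33000000 had 636 scaled units in AGO104 and 170 in AGO105, with 33 and 37 starts and a ratio by starts of 1.958 (1.19 to 3.22). At the other end, chr8:53000001-53500000 had 5.95 scaled units in AGO104 and 64.9 in AGO105, from 2 and 23 starts (ratio 0.191, 0.022 to 0.773). The window chr3:102500001-103000000 had 17.9 in AGO104 and 108 in AGO105, from 3 and 28 starts (ratio 0.235, 0.046 to 0.761). Among the 10 lowest windows, the other 6 without a flat stretch had log2 ratios between -3.16 and -2.56, and in all 6 the interval by starts included 1.

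At single loci the antibodies overlapped much less than over windows. Of the loci, 26867 were covered in both tables, 40.2% (39.9 to 40.6) of those in AGO104 and 20.2% (19.9 to 20.4) of those in AGO105. These loci held 61.9% of the AGO104 coverage and 48.9% of the AGO105 coverage. Thinned by calculation to the number of AGO104 alignments, AGO105 would keep 117117 loci, of which AGO104 covered 21.4%. Those shared loci would be 37.5% of the AGO104 loci. This thinning evens the alignments and not the distinct starts, so it does not put the tables at equal depth in starts.

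The overlap followed the number of distinct starts at a locus. Loci with a single start made up 84.3% of the loci in AGO104 and 78.3% in AGO105. Of these, 33.5% (33.1 to 33.9) of the 56297 in AGO104 were covered in AGO105, and 12.6% (12.4 to 12.8) of the 104327 in AGO105 were covered in AGO104. With 3 to 4 starts, the other table covered 90.8% (89.6 to 91.9) of the AGO104 loci and 58.1% (57.1 to 59.2) of the AGO105 loci. With 5 to 9 starts these were 98.8% (97.4 to 99.6) of 493 loci and 84.3% (82.9 to 85.7) of 2817 loci. All 92 AGO104 loci with 10 or more starts were covered in AGO105, and 312 of the 318 such AGO105 loci were covered in AGO104. The share covered with the other antibody thus rose at every step in starts, in both tables. Loci were joined over both tables, so those with more starts can span more bases and meet the other table's coverage more easily. Shares at loci of like length were not computed. AGO105 had 2.20 times the starts of AGO104, which favours a higher share for the AGO104 loci.

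**Figure D3:**
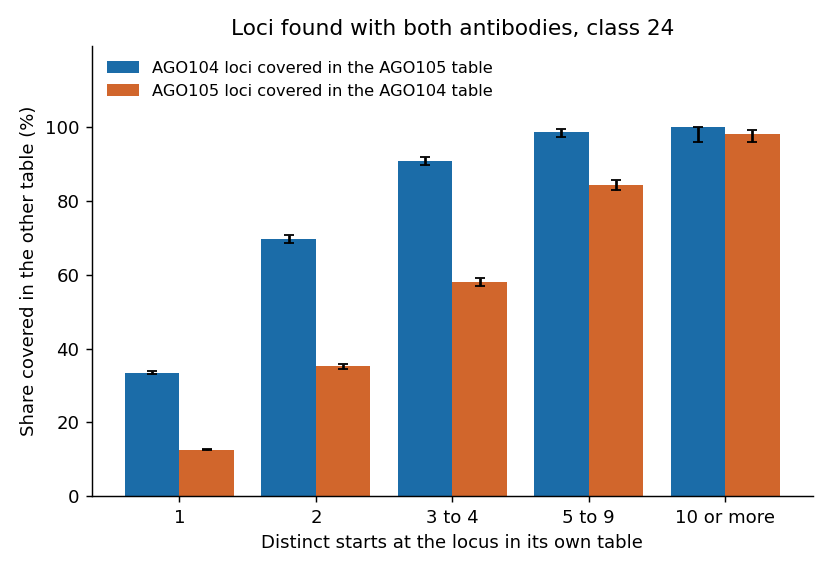
Share (%) of the loci of each table that were also covered in the other table, by number of distinct starts at the locus, with 95% Clopper-Pearson intervals as error bars. Shares climb to 100% of AGO104 loci and 98.1% of AGO105 loci at 10 or more starts. At each number of starts the AGO104 loci lie higher, with AGO105 the deeper table.

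With 2 starts, the other table covered 69.7% (68.6 to 70.7) of the AGO104 loci and 35.2% (34.53 to 35.95) of the AGO105 loci. Among loci with a single start, the share was higher at 11 to 20 alignments than at 1 in both tables, with intervals apart. AGO104 loci with 1 start and 1 alignment were covered in AGO105 in 29.2% (28.3 to 30.2) of cases, and those with 11 to 20 alignments in 36.8% (35.8 to 37.7). For AGO105 loci the shares were 9.75% (9.34 to 10.2) at 1 alignment and 14.9% (14.3 to 15.6) at 11 to 20. Above 20 alignments they were 69.9% of 428 loci in AGO104 and 47.8% of 695 loci in AGO105, at or above the shares at 2 starts. Isolated stretches of the same start and end in both tables numbered 4822, and rho of their depths was 0.199.

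The typical number of alignments per locus, unscaled, was the same with both antibodies. The median was 6 alignments in AGO104 and 6 in AGO105, with quartiles of 3 and 11 in AGO104 and 3 and 10 in AGO105. The 95th percentile was 20 in AGO104 and 25 in AGO105. AGO105 held 2.06 times the alignments, so an equal count is a larger scaled value in AGO104. The median log2 ratio of scaled units was 0.53 at the 26867 loci covered in both tables. It was -0.10 at the 16746 loci with at least 20 alignments over both tables. Loci with 5 or more starts numbered 585 in AGO104 and 3135 in AGO105.

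Among the 16746 loci with at least 20 alignments over both tables, AGO104 was more than 2-fold higher at 4160 (24.8%) and more than 2-fold lower at 5765 (34.4%). By distinct starts the larger side turned, with 5379 of the same loci higher and 4373 lower. AGO105 had 2.20 times the starts of AGO104, so loci with equal starts in both tables counted as past 2-fold higher in AGO104. The direction by starts at loci of few starts is therefore partly set by table depth. Of the 16746 loci, 3593 had no coverage in AGO104 and 551 none in AGO105, and 3916 had no more than 2 starts in all. At loci with at least 10 starts over both tables, the larger side also depended on the measure. By coverage, 163 of 1046 were more than 2-fold higher in AGO104 and 182 more than 2-fold lower. By starts, AGO104 was more than 2-fold higher at 172 of 1046 (16.4%) and more than 2-fold lower at 127 (12.1%). Equal starts again counted as higher in AGO104. At the 467 loci with at least 5 starts in each table, rho of the scaled coverage was 0.584, against 0.321 over the 26867 loci covered in both. Loci of a table share its library and depth, so these are descriptions.

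Coverage was concentrated in a few loci to nearly the same degree. The 10 deepest loci of a table held 18.3% of the coverage in AGO104 and 17.6% in AGO105. The top 1% of loci held 26.6% in AGO104 (668 loci) and 26.5% in AGO105 (1334 loci). Without the 2 deepest windows, the top 1% held 11.5% in AGO104 and 12.2% in AGO105. It took 8757 loci (13.1% of them) to reach 50% of the coverage in AGO104, and 14180 (10.6%) in AGO105.

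The 4 deepest loci were the same in both tables and in the same order. The deepest, chr2:157585656-157592015, had 79824 scaled units in AGO104 and 73890 in AGO105, on 48925 and 93439 alignments. Next came chr10:35065804-35069313 with 54895 in AGO104 and 47950 in AGO105, and chr10:35063198-35065675 with 23316 and 24620. The fourth, chr10:35072160-35073680, had 8739 in AGO104 and 11328 in AGO105 (ratio 0.771). The 3 loci of chromosome 10 lie in 1 stretch of 10483 bases. The chromosome 2 locus and chr2:157594410-157595268, with 4306 scaled units in AGO104 and 5923 in AGO105, lie in 1 of 9613 bases.

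Depth along these stretches was alike between the antibodies and between the chromosomes. Base by base, rho between AGO104 and AGO105 was 0.907 over 7064 covered bases on chromosome 10 and 0.912 over 6494 on chromosome 2. The highest depth was 13415 in AGO104 on both chromosomes and 24768 in AGO105 on both. In scaled units per base these peaks were 907 in AGO104 and 812 in AGO105. Slid along each other in the same orientation, the chromosome 10 and chromosome 2 profiles gave an r of log2 depth of 0.898 in AGO104 and 0.897 in AGO105, at the same shift of 244 bases in both tables. Reads placed on both chromosomes count on each, so these are not 2 independent measurements.

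**Figure D4:**
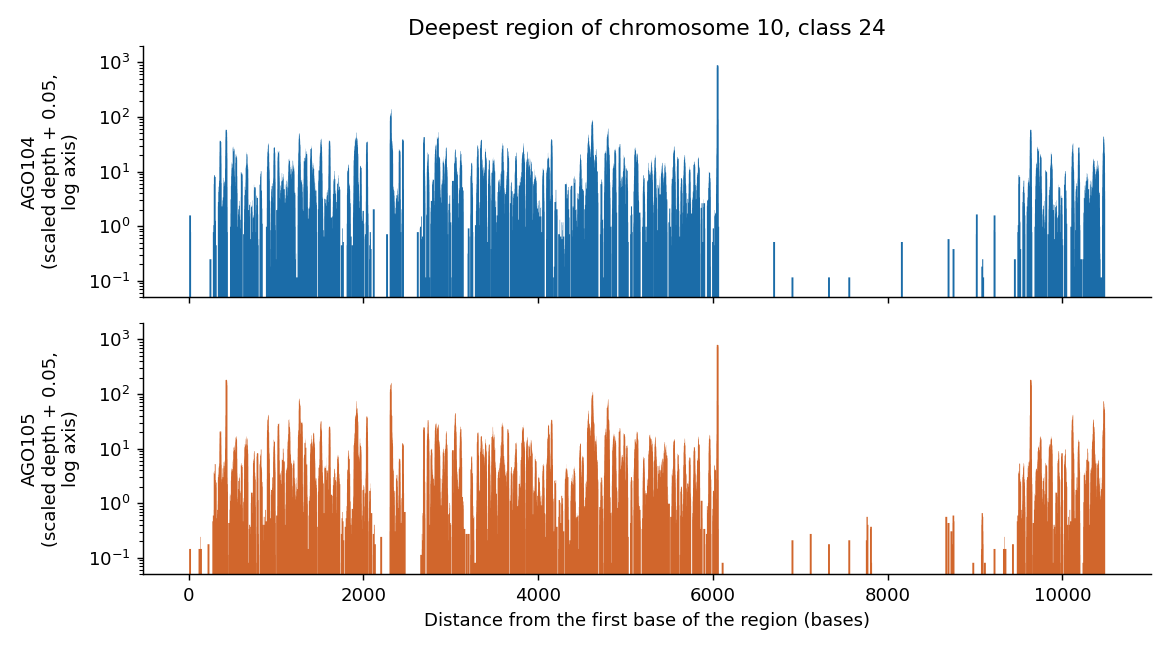
Depth along the 10483 bases of the deepest stretch of chromosome 10, AGO104 above AGO105, in scaled units per base plus 0.05 on a log axis, against the distance from its first base. Both tables show dense coverage over the first 6000 bases, a gap and a second covered part at the far end, with peaks of 907 in AGO104 and 812 in AGO105.

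The 2 antibodies differed inside this profile in places. In the first 500 bases on chromosome 10 the scaled coverage was 2941 in AGO104 and 5096 in AGO105 (ratio 0.577), with a peak depth of 885 in AGO104 and 5718 in AGO105. The same peak depths recurred near the other end of this stretch and near both ends of the chromosome 2 stretch. The same reads may be counted at each of these places. Between bases 5501 and 6000 it was 3597 in AGO104 and 2363 in AGO105 (ratio 1.52). In the 500 bases with the highest peak it was 19988 in AGO104 and 17967 in AGO105 (ratio 1.11).

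Outside these stretches, the 10 deepest loci of AGO104 held the loci of both flat stretches, 1 other chromosomal locus and 2 organelle loci. The locus Pt:95065-96651 had 1283 scaled units in AGO104 and 292 in AGO105, with a ratio per alignment of 4.36 (3.86 to 4.92). On chromosome 7, chr7:46266281-46268864 had 1282 in AGO104 and 321 in AGO105, from 126 and 96 starts, with a ratio of 4.04 (3.60 to 4.55). Its window had 4348 scaled units in AGO104 and 1392 in AGO105. The locus Mt:419620-421226 had 1314 in AGO104 and 502 in AGO105, a ratio of 2.66 (2.40 to 2.95). All 3 were higher in AGO104 by more than counting error, but they were picked for their depth in AGO104. Class 24 made up only 24.1% of the alignments of all classes at the chromosome 7 locus in AGO104 and 19.3% in AGO105. It was 14.3% in AGO104 and 15.2% in AGO105 at the plastid locus, and 19.8% and 18.0% at the mitochondrial locus.

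Outside these stretches, 5 of the 10 deepest loci of AGO105 remained. Of these, 2 held flat stretches, chr7:17838588-17863085 with 14.9 scaled units in AGO104 and 6454 in AGO105, and chr8:96226783-96231124 with 0 in AGO104 and 2135 in AGO105. The other 3 were at most 139 bases long and had at most 9 starts. The 28 bases chr10:114216896-114216923 had 606 scaled units in AGO104 and 1222 in AGO105, on 408 and 1697 alignments (ratio 0.495, 0.443 to 0.552). Loci of 139 and 138 bases on chromosome 3, chr3:233502491-233502629 and chr3:233525424-233525561, had 611 and 607 in AGO104 and 1216 and 1206 in AGO105. Their highest depths were equal, 400 in AGO104 and 1670 in AGO105. Class 25 alignments outnumbered class 24 at all 3 loci in both tables, with 474 against 408 in AGO104 and 2050 against 1697 in AGO105 at the chromosome 10 locus.

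The strongest ratios at loci came, flat stretches aside, from loci with no more than 1 alignment in the other table. Leaving aside the flat stretch on chromosome 5, the highest was the 27 bases chr1:158956077-158956103, with 81 alignments at 2 starts in AGO104 and 0 in AGO105. With 3 alignments as the limit that a count of 0 allows in the AGO105 table, it was at least 55.6-fold higher in AGO104. The same place was not empty in other AGO105 classes, which held 19 alignments of class 21 and 18 of class 22 there. The locus chr4:189498283-189498649 had 56 alignments at 6 starts in AGO104 and 0 in AGO105, and none in any other class of either table. With 3 alignments again as the limit, it was at least 38.4-fold higher in AGO104. The other AGO104 loci among the 10 highest had between 53 and 67 alignments and at most 4 starts.

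Most loci at the low end held more starts, with 7 or more in AGO105 at all but 2 of the 9 that had no AGO104 coverage. The locus chr10:37879596-37880347 had 0 alignments in AGO104 and 118 at 15 starts in AGO105, at least 19.1-fold lower in AGO104. The locus chr10:106619637-106619851 had 0 in AGO104 and 93 at 11 starts in AGO105 (upper limit 0.083), although the AGO104 table of class 23 had 21 alignments there. The locus chr6:172182844-172182993 had 0 in AGO104 and 93 at 10 starts in AGO105 (upper limit 0.083). Of the AGO105 loci with 10 or more starts, 6 had no AGO104 coverage, and these 3 are among them. Which loci fall in such lists depends on the depth of the other table, which was lower for AGO104.

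The makeup by length class set the deepest loci apart from the rest. In the 2 deepest windows, class 24 made up 20.7% (20.6 to 20.8) of the alignments of all 5 classes in AGO104 and 20.0% (19.9 to 20.1) in AGO105, and classes 23 and 25 together 47.6% and 45.0%. In the organelle genomes class 24 was 21.3% in AGO104 and 24.5% in AGO105. Outside both, class 24 was 51.5% (51.5 to 51.6) of 1057481 alignments in AGO104 and 49.1% (49.1 to 49.2) of 2318951 in AGO105. By distinct starts it was 64.1% (63.8 to 64.3) in AGO104 and 67.7% (67.5 to 67.8) in AGO105.

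This makeup changed with the number of starts at a class 24 locus outside those sequences. At loci with 1 start, class 24 was 78.5% of the alignments in AGO104 and 74.2% in AGO105. Only 4.75% of these loci in AGO104 and 4.31% in AGO105 held an alignment of any other class. The loci were defined by class 24 coverage, which favours a high class 24 share where starts are few. Loci defined by another class were not compared. At 2 starts class 24 was 56.5% in AGO104 and 47.8% in AGO105, and at 3 to 4 starts 52.7% and 50.2%. At 5 to 9 starts it was 53.1% in AGO104 and 66.2% in AGO105, and 61.9% and 60.4% of the loci held another class. At 10 or more starts class 24 was 21.2% (20.9 to 21.5) at 74 loci in AGO104 and 33.4% (33.1 to 33.7) at 296 loci in AGO105. Class 25 there was 21.4% in AGO104 and 9.30% in AGO105. The AGO104 loci with 10 or more starts thus had a class makeup near that of the deepest windows and the organelles, and the AGO105 loci less so. The same cut took 74 loci in AGO104 and 296 in the deeper AGO105 table. These sets are therefore not alike in rank, and the antibodies were not compared at equal rank.

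**Figure D5:**
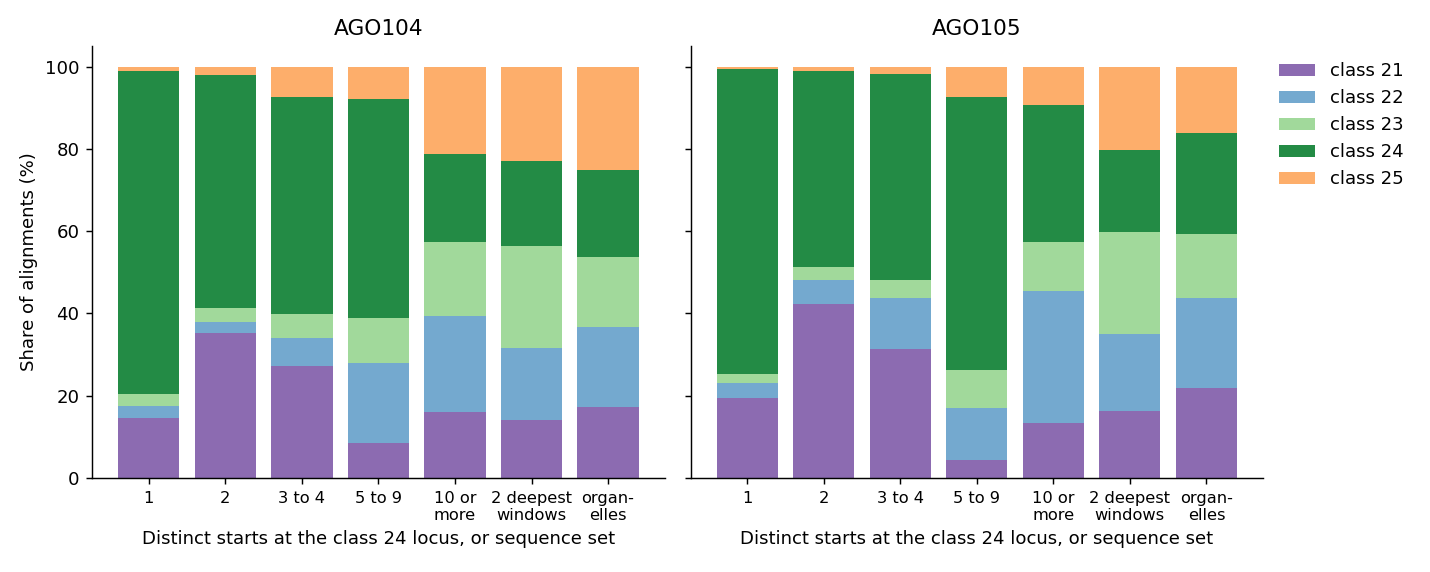
Share (%) of alignments in each length class, AGO104 left and AGO105 right, at class 24 loci grouped by their distinct starts, in the 2 deepest windows and in the organelle genomes. Class 24 falls to 21.2% in AGO104 and 33.4% in AGO105 at loci with 10 or more starts, and is 20.7% and 20.0% in the 2 deepest windows.

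Starts of the other classes often fell within class 24 loci, which span 0.296% of the chromosomes. Of the starts outside the deepest windows and organelles, the share within a class 24 locus of either table was 47.1% (46.0 to 48.1) in AGO104 and 36.9% (36.2 to 37.6) in AGO105 for class 21. For class 22 it was 43.3% (42.4 to 44.1) in AGO104 and 34.4% (33.8 to 35.0) in AGO105. It was 40.6% in AGO104 and 35.6% in AGO105 for class 23, and 49.5% and 34.3% for class 25. With class 24 loci of the same antibody only, the share was 41.8% in AGO104 and 35.1% in AGO105 for class 21, 36.6% and 32.8% for class 22, and 43.9% and 32.8% for class 25. Class 23 turned, with 32.7% (32.0 to 33.4) in AGO104 and 33.7% (33.2 to 34.2) in AGO105.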

How the data were processed

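Per the labels, the RNA was recovered by immunoprecipitation. Per the paper's methods, reads were trimmed with Trimmomatic and aligned with Bowtie, with up to 2 placements reported per read. The submitters' processing notes name Bowtie 1.2.2 and bedtools. Which of these steps made the length-class tables is not given in the sources used here. A plastid locus and loci on chromosomes 1, 2 and 5 had equal counts, as given below, so a limit of 2 placements per read cannot be assumed for them. The authors deposited coverage, as whole-number depth per interval, with no scaling, and multiple placements cannot be undone from it. The 7 library tables were not used here, and no column of other samples was found (0).

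Coverage was scaled to a sum of 1000000 per table. Alignments were counted as rises in depth, since isolated stretches were mostly 22 bases long rather than 24, and a rise that coincides with a fall is missed. Loci joined intervals within 100 bp. Ratios are log2 of scaled units plus 1, AGO104 over AGO105, called past 2-fold. For locus ratios at least 20 alignments over both tables were required. Chromosome length was the largest end in any of the 10 tables. The windows named come from the 10 highest and 10 lowest ratios with at least 50 alignments, and the loci from the 10 deepest of each table and the 10 highest and lowest ratios. The window of the deep chromosome 7 locus was chosen after its values were seen. The comparison and its lists were chosen with earlier results of these data known. No test was run. Intervals are exact Clopper-Pearson or exact conditional binomial at 95%. The functions were tested on simulated data. Python 3.11.15 was used with pandas 2.3.3, numpy 2.4.6 and scipy 1.17.1, and matplotlib 3.10.9 for figures. No genome of the tables' build was used, so no sequence or gene is given.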

Additional observations from a re-analysis of the deposited data

How the results depend on the processing

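Of 85 values under another setting, 16 of which were chosen after the data were seen, 29 moved little and 52 moved, and in 4 a chromosome's ratio crossed 1. Some values that moved also changed which antibody was higher, as given below. For the share of chromosome 5, the ratio of 1.05 became 0.997 by starts, 1.01 without the 10 deepest loci of either table and 1.00 without flat stretches. For chromosome 7 the 0.934 turned to 1.01 by starts, 1.02 without the deepest loci and 1.02 without flat stretches. The difference in the outer 20% of -1.03 percentage points, AGO104 minus AGO105, was -0.66 by covered bases, -0.30 by starts, -0.17 without the deepest loci and -0.30 without flat stretches.

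Windows higher and lower in AGO104 numbered 3608 and 5731 at 0.1 Mb, 20 and 27 at 1 Mb, 50 and 114 by covered bases, 49 and 135 by starts, and 4 and 29 at 4-fold. The Spearman correlation across windows was 0.643 at 0.1 Mb, 0.820 at 1 Mb, 0.789 by covered bases, 0.80 by starts, 0.765 without the deepest loci, 0.766 by alignments and 0.767 without flat stretches.

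Loci higher and lower in AGO104 numbered 17239 and 28659 with at least 10 alignments, and 518 and 700 with at least 50. The number of loci compared changes with this threshold. These counts therefore cannot be set directly against the 4160 and 5765 of 16746 loci with at least 20. Of the 1046 loci with at least 10 starts, 172 and 127 were higher and lower by starts, or 163 and 182 by coverage, where the larger side differed. With the whole interval past 2-fold, 1782 were higher and 3998 lower. By starts with at least 20 alignments, 5379 were higher and 4373 lower, so the larger side changed. In counts by starts, loci with equal starts in both tables fall past 2-fold higher in AGO104.

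The shared part of AGO104 and of AGO105 loci was 30.0% and 14.2% at a merge distance of 0 bp, 50.7% and 27.0% at 500 bp, 37.5% and 21.4% after thinning, and 44.8% and 25.7% for loci with at least 5 alignments. The top 1% held, in AGO104 and AGO105, 24.4% and 25.03% at 0 bp, 27.5% and 27.3% at 500 bp (26.6% and 26.5% in the report, so the order turned at 0 bp), 9.93% and 8.45% by starts, 26.1% and 26.4% on chromosomes 1 to 10, and 11.5% and 12.2% without the 2 deepest windows. Class 24 outside those windows was 64.1% and 67.7% by starts, higher in AGO105, against 51.5% and 49.1% by alignments.

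No paired analysis was possible because each antibody had 1 table. The AGO104 table had 0.486 times the AGO105 alignments, which limits what a lack of coverage in AGO104 can show.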

Other observations

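Some loci of the organelle genomes had a chromosomal locus of the same length with the same number of alignments and starts in both tables. These were picked after their values were seen. The 73 bases Pt:13073-13145 and the loci chr1:29685314-29685386, chr2:110112288-110112360 and chr5:215848997-215849069 each had 63 alignments in AGO104 and 2 in AGO105, a ratio of 64.9 (17.2 to 547). In the other direction, Pt:79589-79842 and chr10:100531188-100531441, of 254 bases, each had 2 alignments in AGO104 and 67 in AGO105, a ratio of 0.061 (0.0073 to 0.231). The 29 bases Mt:137822-137850 and chr3:74908439-74908467 each had 57 alignments in AGO104 and 142 in AGO105, a ratio of 0.826 (0.597 to 1.13). Copies of this kind enter a locus count more than once. Of the 6188 loci with at least 20 alignments and 5 starts over both tables, 206 (3.33%) had a partner with equal values.

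Of the 493 AGO104 loci with 5 to 9 starts, 6 had no AGO105 coverage. The plastid locus Pt:123417-123591 was among them, with 19 alignments at 6 starts in AGO104 and 0 in AGO105, at least 13.0-fold higher in AGO104. It was chosen after its values were seen.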
